A study of Drosophila melanogaster with 6 samples.

Results

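The ecdysone response genes and nuclear receptors described here are a named list of 34 Drosophila melanogaster genes. They were chosen for their known role, with earlier results of these data already known. Of the 34, 30 were found among the 14869 genes of the deposited count table by gene identifier. The other 4 (br, Eip93F, Hr4 and Kr-h1) were not matched by identifier and were not analysed here. Of the 30, 29 had enough counts to be tested, among 10029 genes tested in all. The 30 genes fall into 5 roles: the receptor and its coactivator, the puff genes, other nuclear receptors, hormone-induced secreted, enzyme and transport genes, and death genes.

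Ecdysone is the steroid hormone that times the molts and metamorphosis of insects. Its active form, 20-hydroxyecdysone, binds a heterodimer of the nuclear receptors EcR and USP, which switches on a first set of genes seen as early puffs on polytene chromosomes. Their products are mostly transcription factors, many of them nuclear receptors themselves, and they set the order of later genes. In the last larval instar, pulses of the hormone drive wandering, glue secretion and then pupariation, and the larval fat body and the brain respond with different programmes.

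The libraries were made from polyadenylated RNA of male larvae, wandering in the third instar and raised at 25 °C, in 3 groups of 2 biological replicates. The groups were central brain without ventral nerve cord (brain, 30 larvae per library), fat body on plain medium (control fat body, 18 larvae per library), and fat body of larvae raised on medium with 25 µM 4-hydroxytamoxifen (4-HT), a tamoxifen metabolite. Every library, controls included, was an equal mix of 6 y,w lines with a transgene inserted at ZH51C, in which the hsp70 promoter drives Dam[4-HT-intein@L127C], the Dam methyltransferase with a 4-HT-dependent intein, either alone or fused to PC, H1, HP1, MRG15 or BRM. No wild-type line was among the groups, and each library averages pooled larvae, so the timing of single animals was not resolved. Total counts were between 20687696 and 65802288 per library. Levels are given as CPM, counts relative to a library size that edgeR had scaled by trimmed means of M values (TMM). SD is between the 2 replicates, and a gene was called at an edgeR adjusted p under 0.05.

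The tissue labels were checked against fixed marker lists. The summed level of 7 fat body markers was 751040 to 936230 CPM in the 4 fat body libraries and 159 and 271 CPM in the brain libraries. The 4 neuroblast markers summed to 245 and 200.3 CPM in brain and to at most 1.19 CPM in fat body. The sums of the neuron and glia lists did not set brain apart. The 5 neuron markers summed to 608 and 784 CPM in brain and 551 to 693 CPM in fat body, where Syt1 made up most of the sum and was 6.10-fold higher than in brain, while the other 4 were called higher in brain. The 3 glia markers summed to 139.9 and 130.03 CPM in brain and 268 to 395 CPM in fat body, with repo higher in brain, Eaat1 3.80-fold lower and moody not called. One library stood apart: 10 salivary gland markers summed to 1817 CPM in control fat body replicate 1, to 63.8 CPM in brain replicate 1 and to between 0.692 and 2.83 CPM in the other 4 libraries. The 5 hemocyte markers were also highest there, at 137 CPM against 30.1 to 41.5 CPM in the other 5. Gut markers summed to 37.4 CPM there and to 7.68 to 12.2 CPM in the other fat body libraries. Malpighian tubule markers summed to 5.81 CPM there and to 1.26 to 1.47 CPM in those libraries. Muscle markers summed to 23.6 and 18.6 CPM in control fat body and to 9.56 and 8.90 CPM with 4-HT. In brain, 4 prothoracic gland markers summed to 14.1 and 4.75 CPM, against at most 0.264 CPM in fat body (the prothoracic gland makes ecdysone and lies beside the brain). Eye disc markers summed to 5.42 and 5.35 CPM in brain and at most 0.330 CPM in fat body. Corpora allata and cardiaca markers summed to 2.97 and 1.40 CPM against at most 0.330 CPM, and testis markers to 1.93 and 2.41 CPM against at most 0.792 CPM. The part of such tissues in the brain values was not tested.

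Brain and control fat body differed in the RNA level of single genes of the list, in both directions. The fat body libraries held more RNA of the receptor EcR, the coactivator tai, the early factors Eip74EF and Eip78C, the activating enzyme shd, the transporter E23 and the receptors Hr78 and Hr96. The brain libraries held more RNA of ImpE1, rpr, hid, dsf, Blimp-1, Hr51 and ftz-f1. In all, 17 of the 29 tested genes were called by edgeR, 7 higher and 10 lower in brain. Over all genes tested 70.0% were called, 35.5% higher and 34.5% lower, so a call in this comparison was common and the share among these genes was not above it. Brain and control values did not overlap for 24 genes (10 above and 14 below), against 86.5% of all genes (45.2% above and 41.4% below). Since these are bulk samples, fewer cells that use a gene and less RNA per cell cannot be told apart.

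The direction of the lower calls depended on scaling. The TMM factors were 2.88 and 3.05 in brain and 0.547 to 0.615 in fat body. Over all genes the median difference was 0.11 on the log2 scale with TMM and 2.49 when counts were divided by library size alone. In that case 20 genes of the list were called, 18 higher and 2 lower in brain. With the median gene itself at 2.49 there, these counts do not set the list apart from other genes. Of the 17 genes called with TMM, 6 changed sign (EcR, tai, Eip74EF, dor, Hr78 and Hr96). Relative to the median gene the values hardly moved: EcR stood at −2.10 with TMM and −2.07 with library size alone, and Hr78 at −2.41 and −2.40. Each "higher" or "lower" below is thus relative to the bulk of genes.

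**Figure D1:**
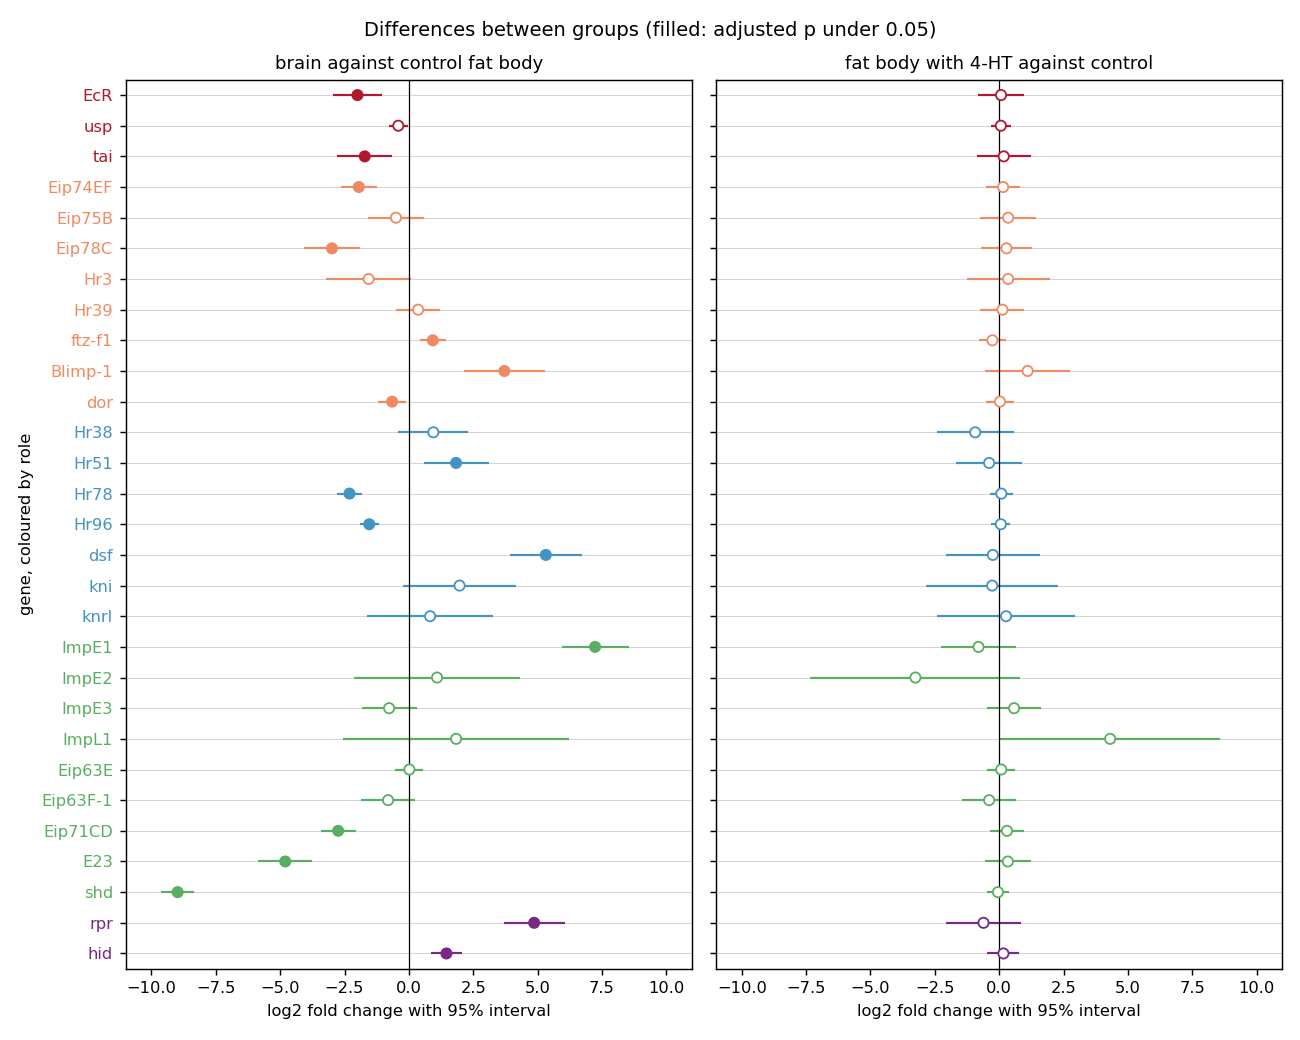
Log2 fold change of each tested gene in brain against control fat body (left) and in fat body with 4-HT against control (right), from edgeR, with 95% intervals; filled points were called. Between tissues the values run from −8.98 for shd to 7.23 for ImpE1, while with 4-HT no gene was called and the widest intervals belong to ImpE2 and ImpL1.

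The receptor and its partners came first. EcR encodes the ecdysone receptor. Its level was 47.9 and 73.7 CPM in brain, 164 and 322 CPM in control fat body, and 291 and 219 CPM in fat body with 4-HT. All 4 fat body libraries lay above both brain libraries, and the control replicates lay 0.97 apart on the log2 scale. EcR was 3.99-fold lower in brain than in control fat body (log2 fold change −1.997 ± 0.39 SE, edgeR adjusted p = 0.00368, n = 2 per group), or higher by 0.41 on the log2 scale with library size alone.

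Its dimer partner usp stayed near one level. It was at 31.9 and 29.6 CPM in brain, 37.5 and 44.3 CPM in control fat body, and 41.7 and 43.8 CPM with 4-HT. The log2 fold change in brain was −0.41 ± 0.16 SE and missed the threshold (edgeR adjusted p = 0.0525), with a 95% interval from −0.79 to −0.03. Some of the exon bases of usp (8.72%) are shared with the neighbours Actn and CG4313.

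The gene tai encodes taiman, a p160-class coactivator of the receptor. It had 36.9 and 57.3 CPM in brain, 101 and 208 CPM in control fat body and 222 and 127 CPM with 4-HT. Like EcR, it was lowest in both brain libraries and varied widely between fat body replicates. It was 3.28-fold lower in brain (log2 fold change −1.71 ± 0.45 SE, edgeR adjusted p = 0.0127). The call was lost without brain replicate 1 (−1.39, adjusted p = 0.0955) and without control replicate 2 (−1.09, adjusted p = 0.0589), and with library size alone the value was 0.70.

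**Figure D2:**
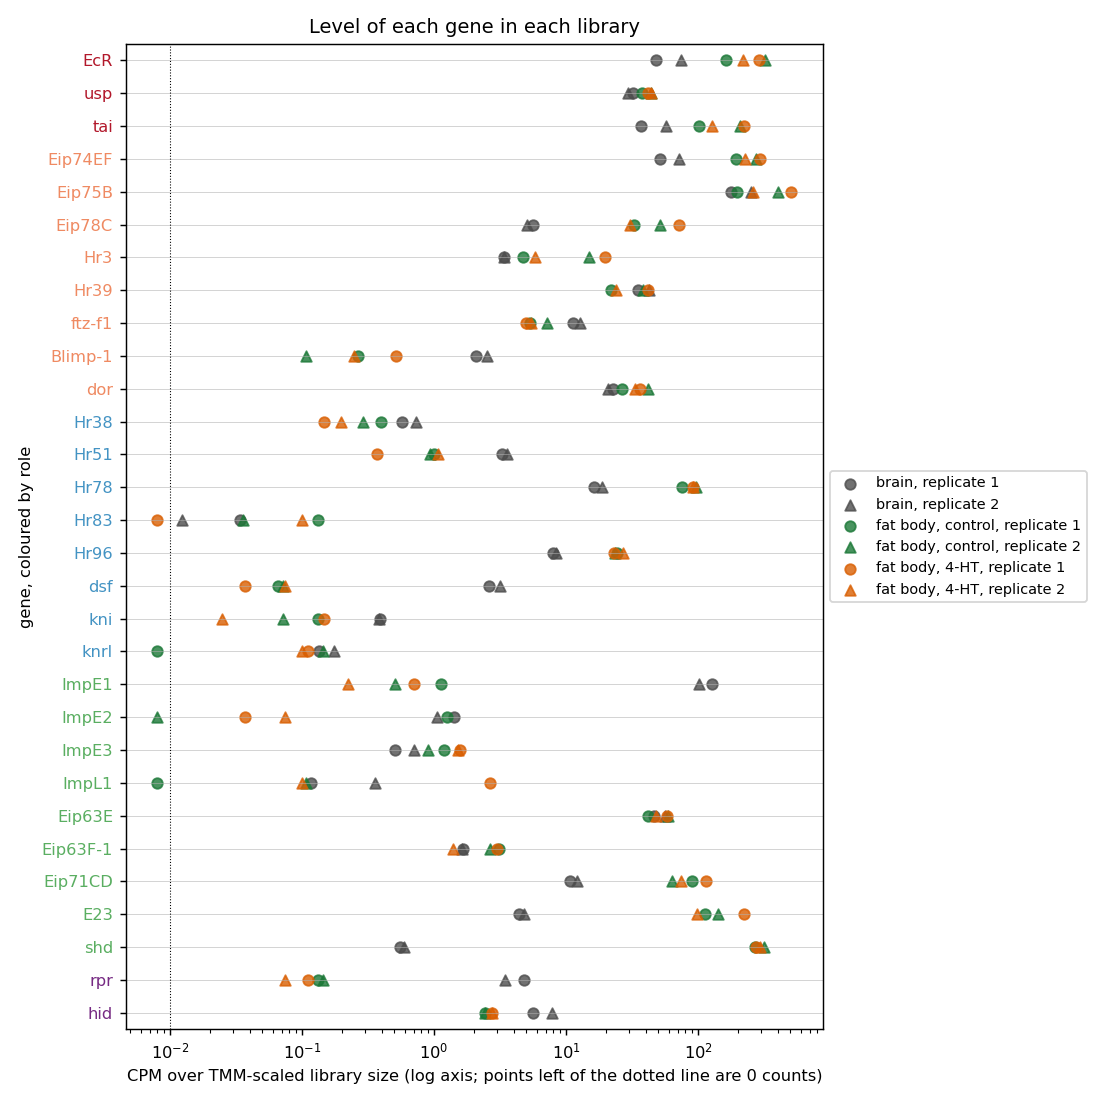
Level of every gene of the list in each of the 6 libraries, in CPM on a log axis, ordered by role, with the 3 groups in different colours and values of 0 drawn left of the dotted line. The brain points of shd and E23 lie far below the fat body points and those of ImpE1 and rpr far above, whereas usp, Eip63E and Hr39 lie close together in all groups.

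Among the 8 puff genes tested, 3 were lower in brain, 2 were higher and 3 were not called. Eip74EF, the Ets-domain factor of an early puff, had 51.2 and 71.5 CPM in brain, 195 and 277 CPM in control fat body, and 296 and 227 CPM with 4-HT. It was 3.84-fold lower in brain (log2 fold change −1.94 ± 0.29 SE, edgeR adjusted p = 9.93e-04), or higher by 0.46 with library size alone. Its brain and fat body values did not overlap.

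Eip75B, a heme-binding nuclear receptor of another early puff, behaved differently. It had 176 and 249.6 CPM in brain, 198 and 405 CPM in control fat body, and 508 and 260.4 CPM with 4-HT. Brain replicate 2 lay between the control libraries, and the log2 fold change of −0.50 ± 0.45 SE did not pass (edgeR adjusted p = 0.345, interval −1.58 to 0.57). Without control replicate 2 the value was 0.12, so its direction rested on that library.

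Eip78C, a nuclear receptor related to Eip75B, was at 5.59 and 5.06 CPM in brain, 32.5 and 51.7 CPM in control fat body, and 72.2 and 30.5 CPM with 4-HT. It was 7.93-fold lower in brain (log2 fold change −2.99 ± 0.45 SE, edgeR adjusted p = 0.00108). With library size alone it was still lower, by −0.59 on the log2 scale, but not called.

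Hr3, the early-late receptor that activates ftz-f1, had 3.41 and 3.36 CPM in brain, 4.75 and 15.0 CPM in control fat body, and 19.8 and 5.76 CPM with 4-HT. The brain replicates were nearly equal, while the fat body replicates of each group differed over 3-fold. The log2 fold change in brain was −1.56 ± 0.69 SE (edgeR adjusted p = 0.0814, interval −3.22 to 0.09). It was −0.47 without control replicate 2, −2.12 without control replicate 1 and 0.85 with library size alone, and it was called in none of these. Most of its exon bases (82.7%) are shared with CG12912, CG46321 and a long non-coding RNA gene, so the split of reads among them is uncertain.

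Hr39, a receptor of the same subfamily as ftz-f1, was found at similar levels in both tissues. It had 35.0 and 42.4 CPM in brain, 21.7 and 38.5 CPM in control fat body, and 42.0 and 23.9 CPM with 4-HT. Brain differed by a log2 fold change of 0.36 ± 0.35 SE (edgeR adjusted p = 0.392, interval −0.49 to 1.21).

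The gene ftz-f1, whose product gives tissues competence for the next hormone pulse and is normally expressed when hormone levels fall, was 1.90-fold higher in brain. It had 11.2 and 12.8 CPM there, 5.34 and 7.18 CPM in control fat body, and 5.00 and 5.47 CPM with 4-HT. On the log2 scale this was 0.93 ± 0.21 SE (edgeR adjusted p = 0.00698), and without brain replicate 2 it was 0.90 with an adjusted p of 0.0512. Of its exon bases 29.4% are shared with a long non-coding RNA gene.

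Blimp-1 encodes a zinc-finger repressor of ftz-f1. It was at 2.08 and 2.50 CPM in brain, 0.264 and 0.108 CPM in control fat body, and 0.515 and 0.247 CPM with 4-HT. It was 13.1-fold higher in brain (log2 fold change 3.71 ± 0.66 SE, edgeR adjusted p = 0.00233), from only 7 counts in the control libraries. The value was 4.40 without control replicate 1 and 3.12 without control replicate 2. Both the repressor and its target were therefore higher in brain than in fat body.

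The gene dor, deep orange, encodes a subunit of the complex that fuses vesicles with the lysosome. It had 22.6 and 20.8 CPM in brain, 26.6 and 41.4 CPM in control fat body, and 36.2 and 33.4 CPM with 4-HT. It was 1.57-fold lower in brain (log2 fold change −0.65 ± 0.23 SE, edgeR adjusted p = 0.0383). The call did not hold with upper quartile scaling (−0.31, adjusted p = 0.223), with DESeq2 (adjusted p = 0.0888), with all genes kept (adjusted p = 0.0853) or with only the 4 libraries compared (adjusted p = 0.0661). It was also lost without brain replicate 1 (adjusted p = 0.138), brain replicate 2 (0.213) or control replicate 2 (−0.28, adjusted p = 0.262), and with library size alone the value was 1.74.

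The other nuclear receptors of the list split by tissue. Of 7 tested, 2 were higher in brain, 2 were lower and 3 were not called. Hr78, which binds sites shared with EcR and USP, was at 16.3 and 18.6 CPM in brain, 75.9 and 96.7 CPM in control fat body, and 91.1 and 91.7 CPM with 4-HT. It was 4.95-fold lower in brain (log2 fold change −2.31 ± 0.20 SE, edgeR adjusted p = 7.74e-05), or 0.09 with library size alone. An antisense gene covers 18.3% of its exon bases, and the libraries carry no strand mark.

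Hr96, a receptor that regulates xenobiotic and lipid metabolism, was the steadiest of these genes in fat body. It had 8.01 and 8.40 CPM in brain, 24.3 and 23.4 CPM in control fat body, and 23.02 and 26.8 CPM with 4-HT. The log2 fold change in brain was −1.54 ± 0.15 SE (edgeR adjusted p = 1.69e-04), or 0.85 with library size alone.

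The 2 receptors called higher in brain were dsf and Hr51. The gene dsf, dissatisfaction, encodes a Tailless-class receptor of neurons that control sexual behaviour. It had 2.60 and 3.18 CPM in brain and 0.0660 and 0.0718 CPM in control fat body, where it had 3 counts in all. The pooled ratio was 42.1, with a 95% counting interval from 14.3 to 205, and dsf was called by edgeR (adjusted p = 2.45e-04).

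Hr51, also named unfulfilled, is needed in mushroom body neurons. It had 3.27 and 3.57 CPM in brain, 0.990 and 0.933 CPM in control fat body, and 0.368 and 1.06 CPM with 4-HT. It was 3.56-fold higher in brain (log2 fold change 1.83 ± 0.53 SE, edgeR adjusted p = 0.0186). The call was lost without brain replicate 1 (1.94, adjusted p = 0.0671), brain replicate 2 (1.83, adjusted p = 0.0802) or control replicate 2 (1.80, adjusted p = 0.0566), while the value changed little.

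The remaining receptors were near the limit of detection. Hr38, the fly NR4A homologue, had 0.571 and 0.730 CPM in brain and 0.396 and 0.287 CPM in control fat body (log2 fold change 0.95 ± 0.57 SE, edgeR adjusted p = 0.175). The embryonic patterning gene kni had 0.386 and 0.383 CPM in brain and 0.132 and 0.0718 CPM in control fat body (1.97 ± 0.91 SE, adjusted p = 0.0927, or 0.0467 with only the 4 libraries compared). Its relative knrl had 8 and 14 counts in brain and 0 and 4 in control fat body (adjusted p = 0.495). Hr83 was not tested, with 2 and 1 counts in brain, 2 and 1 in control fat body and 0 and 4 with 4-HT. For these genes a difference of moderate size was not detectable at this depth.

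Hormone-induced secreted, enzyme and transport genes held the widest differences in both directions. Of 9 tested, 1 was higher in brain, 3 were lower and 5 were not called. The gene shd, shade, encodes the cytochrome P450 that converts ecdysone to 20-hydroxyecdysone in peripheral tissues, the fat body among them. It had 0.554 and 0.594 CPM in brain, 270.2 and 314 CPM in control fat body, and 273 and 292 CPM with 4-HT. That is 506-fold lower in brain (log2 fold change −8.98 ± 0.26 SE, edgeR adjusted p = 3.87e-06).

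E23 encodes an ABC transporter induced early by the hormone. It had 4.38 and 4.76 CPM in brain, 114 and 142 CPM in control fat body, and 223 and 98.6 CPM with 4-HT. It was 27.9-fold lower in brain (log2 fold change −4.80 ± 0.44 SE, edgeR adjusted p = 1.09e-04). The replicates with 4-HT differed over 2-fold, while the brain replicates were almost equal.

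Eip71CD, listed by RefSeq as MsrA, encodes a methionine sulfoxide reductase. It had 10.7 and 12.1 CPM in brain, 89.3 and 63.7 CPM in control fat body, and 114 and 74.7 CPM with 4-HT. It was 6.71-fold lower in brain (log2 fold change −2.75 ± 0.29 SE, edgeR adjusted p = 1.97e-04). With library size alone it kept that direction and was not called.

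ImpE1, named for its induction by ecdysone in imaginal discs and similar to low-density lipoprotein receptors, went the other way. It had 127 and 102 CPM in brain, 1.12 and 0.502 CPM in control fat body, and 0.699 and 0.223 CPM with 4-HT. It was 150.4-fold higher in brain (log2 fold change 7.23 ± 0.54 SE, edgeR adjusted p = 4.55e-05), and the value was 7.85 without control replicate 1.

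Its namesakes did not follow it. ImpE2 had 85 and 85 counts in brain, 19 and 0 in control fat body, and 1 and 3 with 4-HT. All of its control counts thus came from replicate 1, the library with the high salivary gland and hemocyte sums, whose part in this value was not tested. The log2 fold change in brain was 1.09 ± 1.34 SE (edgeR adjusted p = 0.489), and without control replicate 1 it was 8.89 with an adjusted p of 0.00196, a fitted value against a library at 0 counts.

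ImpE3 had 0.504 and 0.705 CPM in brain, and 1.19 and 0.897 CPM in control fat body (log2 fold change −0.77 ± 0.44 SE, edgeR adjusted p = 0.162). ImpL1, a late gene of the same screen, had 7 and 29 counts in brain, 0 and 3 in control fat body, and 72 and 4 with 4-HT. The pooled ratio of brain to control was 3.68, with a counting interval from 1.16 to 18.7, and edgeR did not call it (adjusted p = 0.396). Nearly all of its fat body counts came from a single library, 4-HT replicate 1.

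Eip63E, a cyclin-dependent kinase gene, was the flattest of the list. It had 46.3 and 55.8 CPM in brain, 41.8 and 58.8 CPM in control fat body, and 58.5 and 47.8 CPM with 4-HT. Its log2 fold change was 0.02 ± 0.23 SE, with an interval from −0.53 to 0.57 (edgeR adjusted p = 0.944). Eip63F-1, a calcium-binding protein gene, had 1.64 and 1.63 CPM in brain and 3.10 and 2.66 CPM in control fat body (−0.81 ± 0.43 SE, adjusted p = 0.137).

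Both death genes were higher in brain. Their products, Reaper and Hid, bind inhibitors of apoptosis and release caspases, and both genes are known to be induced by ecdysone in larval salivary glands. The gene rpr had 4.82 and 3.45 CPM in brain, 0.132 and 0.144 CPM in control fat body, and 0.110 and 0.0742 CPM with 4-HT. It was 29.1-fold higher in brain (log2 fold change 4.86 ± 0.49 SE, edgeR adjusted p = 1.79e-04), from 6 counts in the control libraries. The gene hid had 5.66 and 7.75 CPM in brain, 2.44 and 2.44 CPM in control fat body, and 2.72 and 2.75 CPM with 4-HT, a 2.75-fold difference (1.46 ± 0.26 SE, adjusted p = 0.00228).

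Compared with each other per length of exon, the fat body genes ranked as follows. In control fat body shd was highest, at 96.8 ± 10.3 CPM per kb (SD, n = 2). It was followed by Eip71CD at 56.5 ± 13.3 and Hr78 at 35.7 ± 6.09 CPM per kb. Eip74EF (25.3 ± 6.18), E23 (24.8 ± 3.84), EcR (24.4 ± 11.2) and Eip75B (22.4 ± 10.9 CPM per kb) came next and did not differ beyond their spread. EcR and its partner usp (13.5 ± 1.57 CPM per kb) differed by less than the SD of EcR. In brain ImpE1 was highest at 18.2 ± 2.79 CPM per kb, next to Eip75B at 15.8 ± 3.84 and usp at 10.1 ± 0.550 CPM per kb, and usp lay above EcR (6.12 ± 1.84 CPM per kb). The order of the dimer partners per kb was therefore opposite in the means of the tissues, though the difference was below the SD of EcR in fat body. Single libraries kept the order. EcR against usp was 16.5 against 12.4 and 32.4 against 14.6 CPM per kb in control fat body. In brain it was 4.82 against 10.5 and 7.42 against 9.74 CPM per kb. That order rested on the exon unions used, 9.93 kb for EcR and 3.04 kb for usp. In CPM, mean EcR was above mean usp in brain (60.8 against 30.8) and in control fat body (243 against 40.9).

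**Figure D3:**
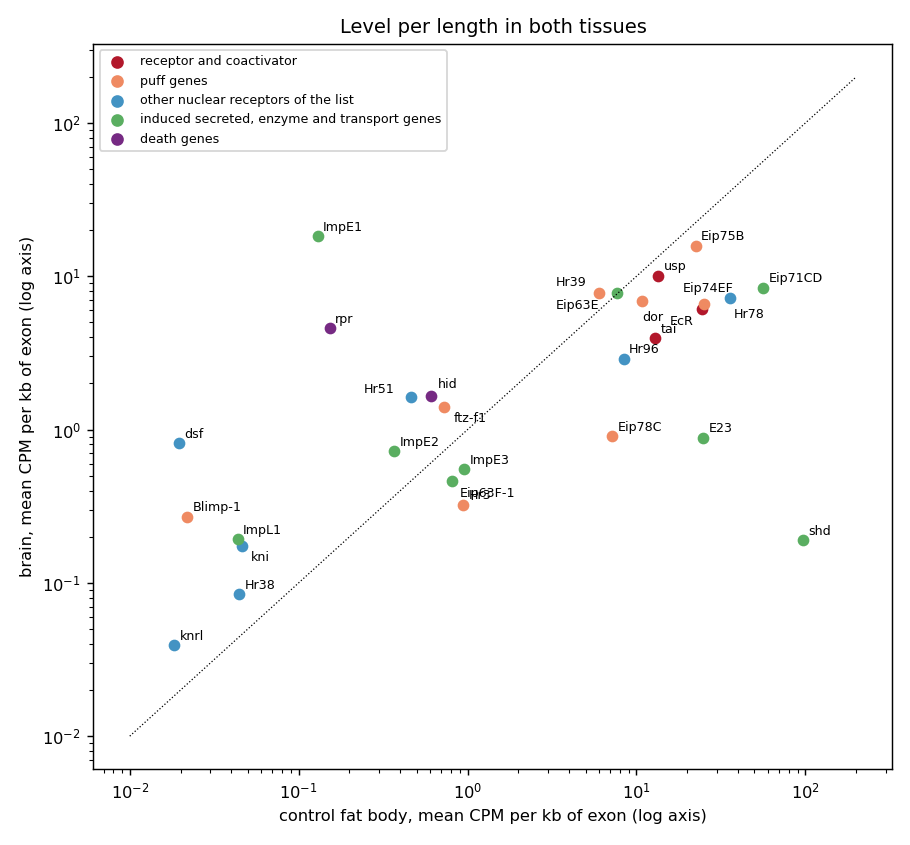
Mean level per kb of exon in brain (vertical log axis) against control fat body (horizontal log axis) for each tested gene, coloured by role, with a dotted line where both are equal. The receptor, coactivator and most puff genes lie below the line among the abundant genes, shd lies at the far right at 96.8 CPM per kb, and ImpE1 lies alone at the upper left.

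The pathway around these genes was counted from fixed lists, in brain against control fat body. Over all genes tested, 35.5% were called higher and 34.5% lower in brain, and each count below stands against these shares. Of 5 tested genes of ecdysteroid synthesis and turnover, 4 were higher in brain and none was lower. These were spok, phm, dib and sad, enzymes of the prothoracic gland. The gene spok had 4.41 and 1.496 CPM in brain and 3 counts in control fat body, and phm had 6.39 and 1.83 CPM against 2 counts. Both were over 2-fold higher in brain replicate 1 than in replicate 2, and their part in the brain values of the list was not tested. Synthesis enzymes were thus seen with the brain, and the activating enzyme shd with the fat body.

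Of 3 hormone transport genes, Oatp74D, the ecdysone importer, was 7.003-fold lower in brain. It had 35.7 and 27.9 CPM there, while control fat body had 200.2 and 245 CPM (edgeR adjusted p = 5.93e-05). DopEcR, a membrane receptor for dopamine and ecdysteroids, was higher in brain, with 22.7 and 29.9 CPM there and 0.396 and 0.323 CPM in the control (log2 fold change 6.21 ± 0.35 SE, edgeR adjusted p = 1.42e-05), and Atet was not called. All 5 tested coregulators and chromatin partners of the receptor were called higher in brain, as were 35.5% of all genes, among them bon (2.43 ± 0.27 SE), rig (2.26 ± 0.15 SE) and E(bx) (1.89 ± 0.41 SE on the log2 scale). Of 5 further nuclear receptor genes 2 were higher in brain (tll by 6.88 and eg by 2.66) and 3 were lower (Hnf4 by −4.13, svp by −3.41 and ERR by −1.11 on the log2 scale).

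Of 6 further cell death genes, 5 were higher in brain and none was lower, against 35.5% higher and 34.5% lower over all genes. The IAP antagonist genes grim (7.56 ± 0.64 SE) and skl (6.55 ± 0.55 SE) moved with rpr, and so did the caspase gene Dcp-1 (2.82 ± 0.23 SE on the log2 scale). The 5 fat body genes with a known link to the hormone, which include Fbp1, Fbp2 and Lsp2, were all lower in brain, as were 34.5% of all genes. Of 11 late puff genes of 71E only Eig71Ee was tested, and 6 had no count in any library. Eig71Ee had 180.3 CPM in control fat body replicate 1, 6.36 CPM in brain replicate 1 and at most 0.502 CPM in the other 4 libraries, the same order as the salivary gland markers. The part of that tissue's RNA in it was not tested.

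With 4-HT in the food, none of the 29 genes was called by edgeR (adjusted p of at least 0.835). The background was 0% of all genes, 0% higher and 0% lower, so these counts cannot compare the members with the rest. On simulated data the fit recovered 12% of 2-fold and 66% of 4-fold changes in this comparison. There each gene was set at its mean level over all 6 libraries, brain included, and changed genes were drawn at random. The rates therefore do not give the power for the list at its fat body levels. One gene, ImpL1, had an unadjusted edgeR p under 0.05 (0.0491), against 5.94% of all genes, and DESeq2 called none of the list and 44 genes in all. The groups did not overlap for 4 genes, with ImpE3 and hid above and Hr38 and rpr below, against 30.0% of all genes (15.5% above and 14.6% below). With 4-HT ImpE3 had 1.58 and 1.51 CPM, Hr38 had 0.147 and 0.198 CPM and dsf, whose groups overlapped, had 0.0368 and 0.0742 CPM, all from few counts. The pathway lists held no call either. Both comparisons use the same 2 control libraries.

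The fitted differences were small for the well-counted genes and their intervals were wide. Of the 29, 22 lay within 0.5 of 0 on the log2 scale. For shd the log2 fold change was −0.05, with a 95% interval from −0.48 to 0.39. For EcR it was 0.07 (−0.84 to 0.98) and for Eip74EF it was 0.15 (−0.51 to 0.81). These 3 intervals leave out a 2-fold change, whereas that of Eip75B (0.35, −0.73 to 1.42) or Hr3 (0.35, −1.27 to 1.96) does not. The extremes were ImpE2 at −3.25 (−7.33 to 0.82) and ImpL1 at 4.31 (0.02 to 8.59), both set by counts in a single library.

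**Figure D4:**
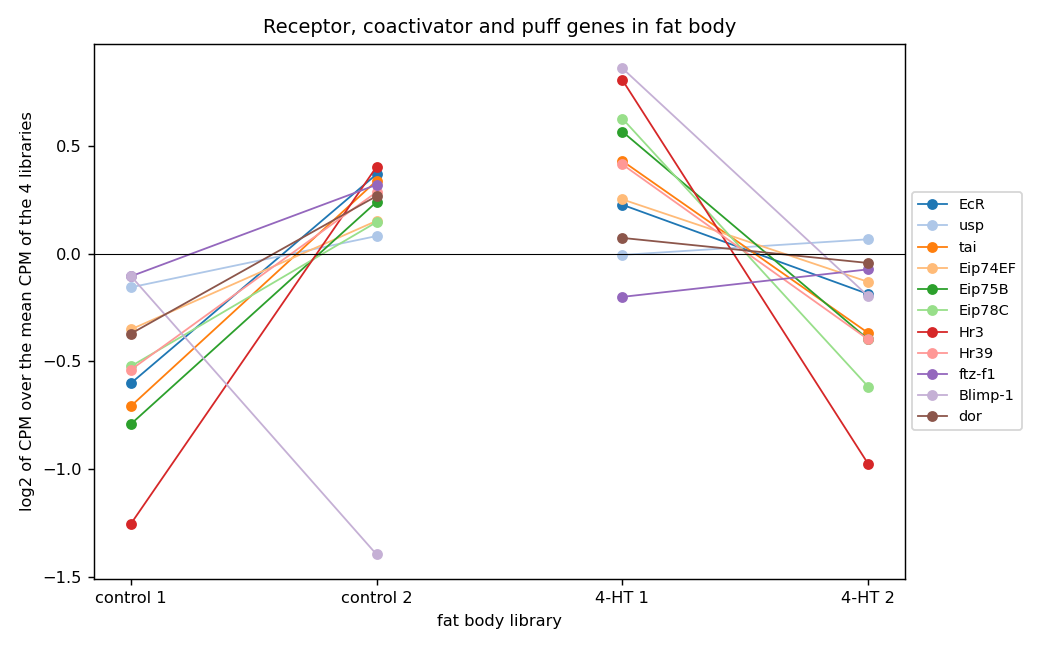
Level of the 11 tested receptor, coactivator and puff genes in the 4 fat body libraries, as the log2 of CPM over the mean CPM of the 4, with a line joining the replicates of each group. In 8 of these genes control replicate 2 and 4-HT replicate 1 are the high libraries, while control replicate 1 and 4-HT replicate 2 are the low ones.

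The fat body replicates differed in a pattern shared by most of the receptor, coactivator and puff genes. Among the 11 tested genes of the receptor, coactivator and puff roles, control replicate 2 was above replicate 1 for 10, against 46.1% of all genes. With 4-HT, replicate 1 was above replicate 2 for 9 of 11, against 46.7% of all genes. Both held for 8 of 11, against 27.9% of all genes, the 8 being EcR, tai, Eip74EF, Eip75B, Eip78C, Hr3, Hr39 and dor. The median differences of the 11 were 0.67 and 0.80 on the log2 scale, while those of all genes were −0.03 and −0.02. The high libraries belong to different groups, so this pattern crosses the treatment. Across all genes tested, log2 CPM of control replicate 2 correlated more with 4-HT replicate 1 (r = 0.9835) than with control replicate 1 (0.9645). The 4-HT replicates stood at 0.979, and 4-HT replicate 2 was closest to control replicate 2 (0.9812). Similarity across the treatment was thus not confined to these genes.

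Over the whole list the pattern was weaker: 18 of 29 were higher in control replicate 2, 19 in 4-HT replicate 1, and 13 in both. Hr3 was the extreme, 1.65 apart in control and 1.77 apart with 4-HT on the log2 scale. Eip75B was 1.03 and 0.96 apart, tai 1.05 and 0.80, and EcR 0.97 and 0.41. In contrast shd, at 0.22 and 0.10 apart, and usp, at 0.24 and 0.07, stayed close. The activating enzyme and the dimer partner were thus steady in the libraries in which the receptor and most puff genes differed. The exon unions of shd and usp (3.02 and 3.04 kb) are shorter than those of EcR, tai, Eip75B and Hr3 (9.93 to 13.5 kb). The gene dor, at 3.16 kb, shared the pattern. Outside the list, E(bx) (10.1 kb) shared it, with 50.3 and 114.5 CPM in control and 110 and 78.6 CPM with 4-HT. Hml (11.8 kb), a hemocyte marker, went the other way in control, with 48.6 and 16.1 CPM, where replicate 1 had the highest hemocyte sum. With 4-HT it was nearly level, at 13.2 and 14.1 CPM. These are single genes, and exon length was not tested.

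Control replicates lay over 2-fold apart for 8 of 29 genes (15.8% of all genes), and 4-HT replicates for 8 of 29 (12.7% of all genes). With at least 50 counts in both replicates these counts were 3 of 16 in control (4.15% of all such genes) and 4 of 18 with 4-HT (4.58%). The 3 in control were tai, Eip75B and Hr3, and the 4 with 4-HT were Hr3, Eip78C, E23 and Eip63F-1. In brain only ImpL1 was over 2-fold apart, 1 of 29 against 5.53% of all genes, and with at least 50 counts the count was 0 of 23 (1.15% of all such genes). Brain replicate 2 was above replicate 1 for 20 of 29 genes, against 45.9% of all genes, with EcR 0.62, tai 0.64, Eip75B 0.50 and Eip74EF 0.48 higher on the log2 scale.

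The 5 fat body genes with a known link to the hormone were mixed in this respect. Fbp1, the hormone-induced receptor gene for storage proteins, had 138560 and 168590 CPM in control and 209220 and 65471 CPM with 4-HT. It shared the direction of EcR within each pair of replicates, as did Ilp6 and ImpL2. Fbp2 went the opposite way in both pairs, with 24574 and 11589 CPM in control and 17688 and 20928 CPM with 4-HT. Lsp2 was higher in control replicate 2, at 219810 and 271010 CPM, and nearly level with 4-HT, at 250540 and 251750 CPM. The salivary gland sum was high only in control replicate 1, one of the 2 low libraries for EcR, and was 2.83 and 2.82 CPM in the 4-HT libraries. The part of hormone timing, cell composition or exon length in the replicate differences was not tested.

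**Figure D5:**
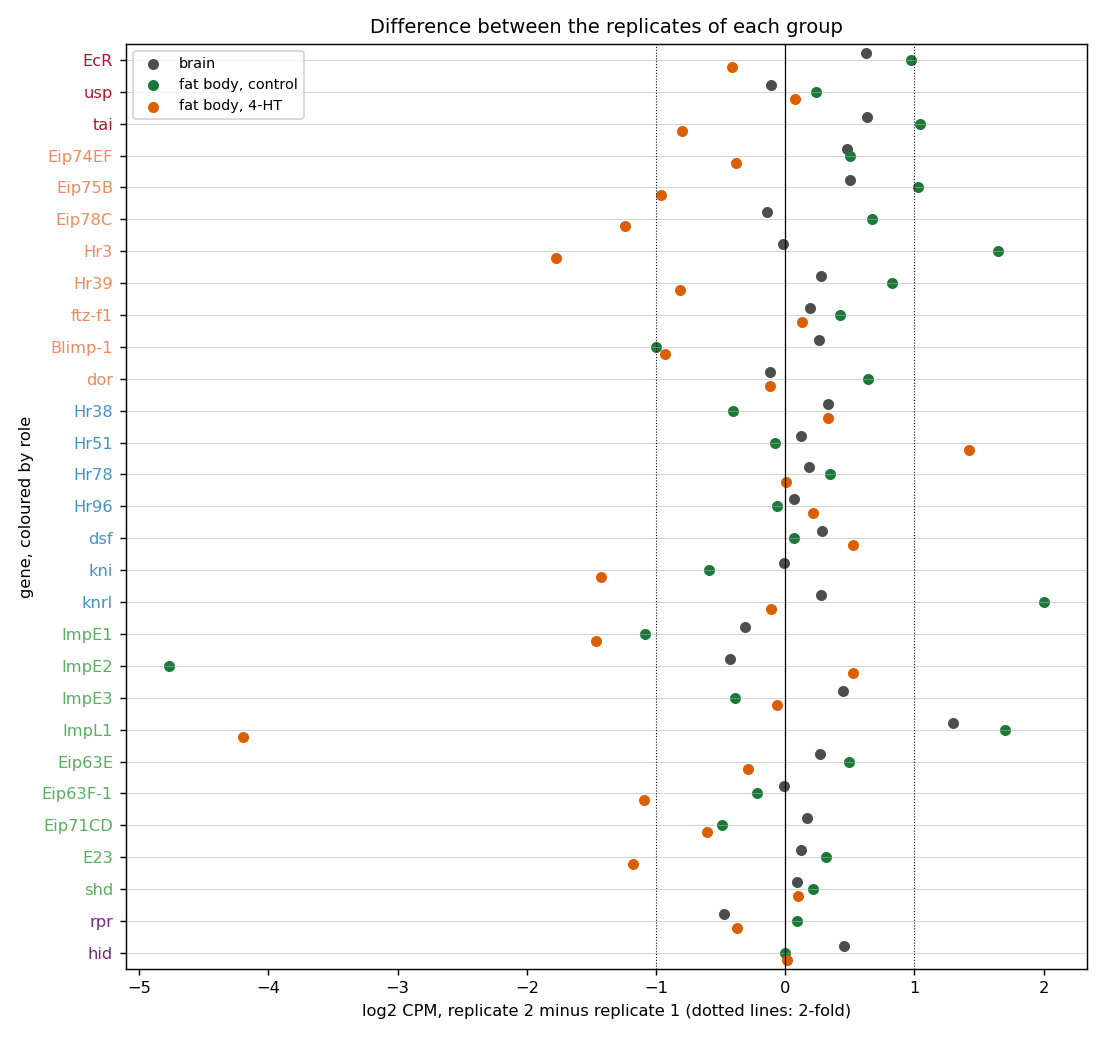
Difference between replicates of each tested gene on the log2 scale, replicate 2 minus replicate 1, for brain, control fat body and fat body with 4-HT. The receptor, coactivator and puff genes lie mostly above 0 in control and below 0 with 4-HT, with Hr3 at 1.65 and −1.77, while shd and usp lie near 0 in both.

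The authors' deposited table for brain and control fat body has 6 genes of the list higher and 7 lower in brain at an adjusted p under 0.05. Over all genes, 5328 passed there, so such a call was common. The number of genes tested there and the split by direction are not given here, so the list is not compared with other genes. The 4 genes called here and not there are EcR (adjusted p = 0.0850 in the authors' deposited table), ftz-f1 (0.105), tai (0.152) and dor (0.293). In the authors' deposited table for 4-HT every gene of the list had an adjusted p of 1. Over all genes, 3 passed 0.05 in that comparison.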

How the data were processed

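The 6 RNA-seq libraries fall into 3 groups of 2 biological replicates, per the labels. The deposited count table holds raw whole numbers for each FlyBase gene, made by the authors. The deposited comparison tables give, per the file headers, the authors' group mean signal (counts over DESeq size factors), a fold change as a ratio, its log2 and a p-value, unadjusted and adjusted. TopHat, HTSeq, DESeq and the build dm3 are named in the submitters' processing notes. How reads were assigned, on which strand and to which annotation is not given in the sources used here. Reads of overlapping genes are therefore uncertain, and the library kit marks no strand.

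Symbols came from gene tables of the release 6 reference and matched 13524 of 14869 identifiers. After filterByExpr on the groups, 10029 genes were scaled by TMM and fitted in R 4.3.3 with edgeR 4.0.16 (estimateDisp and glmQLFit, robust, then glmQLFTest; limma 3.58.1) on all 6 libraries, with no term but group and 3 residual degrees of freedom. Adjustment was by Benjamini-Hochberg over all genes tested. The SE was taken from the quasi-F statistic. Log2 CPM for differences between replicates used a prior count of 2. Counting intervals are 95% and cover counting error only. Exon lengths are unions of exons in the release 6 annotation, while the counts were made on dm3. The fit was tested on simulated data. Alternatives were other scalings, no filter, DESeq2 1.42.0, a replicate block, fewer libraries, and leaving out each library in turn, where the spread of a lone replicate was borrowed from the other groups.

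Every gene of the list found in the table is described, with up to 3 genes for each pathway list. The members and lists were chosen with earlier results of these data known. Libraries were pools of larvae, and p-values measure only the spread between these pools.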

Additional observations from a re-analysis of the deposited data

How the results depend on the processing

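The count of genes called between brain and control fat body was 14 to 20 under all 13 alternatives run, and the count with 4-HT was 0 under all 14. Leaving out single libraries gave 14 to 18 and 0. Over all genes, the 4-HT comparison had 0 calls by edgeR, 2 without a filter, 44 with DESeq2, and 0 to 38 when single libraries were left out. In brain against control fat body, 70.0% of all genes were called in the main fit. The shares under the alternatives are not given here, so the counts of the list do not set it apart from other genes. Genes with a few counts per library were limited by depth.

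With library size alone, 11 genes changed sign in brain against control fat body, at log2 fold changes of 1.74 for dor, 0.41 for EcR, 1.57 for Eip63F-1, 0.46 for Eip74EF, 1.91 for Eip75B, 0.85 for Hr3, 0.088 for Hr78, 0.85 for Hr96, 1.61 for ImpE3, 0.70 for tai and 1.98 for usp. This setting moved the median of all genes from 0.11 to 2.49, and upper quartile scaling moved it to 0.44. With 4-HT, shd changed from −0.05 to 0.029 with library size alone.

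When single libraries were left out, brain values changed sign for Eip63E (−0.18 to 0.30), Eip75B (−0.90 to 0.12) and ImpE2 (−0.0026 to 8.89). With 4-HT the ranges crossed 0 for E23 (−0.37 to 0.81), EcR (−0.33 to 0.65), Eip74EF (−0.079 to 0.43), Eip75B (−0.21 to 0.96), Eip78C (−0.47 to 0.77), Hr3 (−0.79 to 1.43), Hr39 (−0.33 to 0.61), ImpE2 (−4.36 to 4.50), shd (−0.15 to 0.074) and tai (−0.27 to 0.80). The cause was not tested.

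The replicate numbers do not pair the samples in the labels, and the deviations of replicate 1 from its group mean correlated across genes at 0.188 between brain and control, −0.137 between control and 4-HT, and −0.09 between brain and 4-HT. A replicate block in the fit gave 16 of 29 calls in brain, with dor lost (adjusted p = 0.0612), and 0 with 4-HT. A crossed replicate block over the fat body libraries, chosen after seeing the data, called 0 of 21 genes of the list and 0 genes in all.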
